A study of Sus scrofa with 18 samples.

Results

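The genes described here encode the core proteins of small nucleolar ribonucleoproteins (snoRNPs), together with nucleolin and nucleophosmin. They were chosen by name and by no rule on their values, but with earlier results of these data known. The names are FBL, NOP56, NOP58, SNU13, DKC1, NHP2, NOP10, GAR1, NCL and NPM1. Of these 10 names, 9 had an entry among the 20983 genes of the deposited table, and NHP2 had none. A snoRNP is a small guide RNA bound by a fixed set of proteins, and it modifies ribosomal RNA in the nucleolus, where that RNA is transcribed and processed. Box C/D snoRNPs add methyl groups to ribose, and box H/ACA snoRNPs convert uridine to pseudouridine. In early mammalian embryos the nucleolus is rebuilt from an inactive precursor body while the embryo's own genome begins to be transcribed.

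RNA was sequenced from pools of porcine embryos collected as 2-cell, as 4-cell or as 8-cell embryos, and the oocytes had been matured in DMEM, the control medium, or in FLI. FLI is a defined medium named after its growth factors FGF2, LIF and IGF1, on another base medium than the control. The control lacked LIF and contained EGF, FGF and IGF1, so the media differed in more than 1 component. Stage and medium gave 6 groups, with 3 pools in each. All embryos were parthenogenetic, that is, activated without sperm by ionomycin and 6-DMAP and cultured in PZM-3, and so none had a paternal genome. It is not stated whether pools within a group were derived from different oocyte collections, and p-values therefore measure only the spread between these pools. Levels are given as CPM, counts scaled to a common library size, after TMM scaling, which corrects for differences in composition between libraries. A CPM is a share of the RNA of a pool, so more transcripts of a gene per embryo and less RNA of other genes cannot be told apart.

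The libraries held 1737985 to 6781185 counts, and 3 counts, the limit that a count of 0 allows, corresponded to 0.442 to 1.73 CPM (counting error only). Likeness within a group, as the mean Pearson's r across genes, was lowest at the 8-cell stage (0.855 to 0.944). 8-cell DMEM replicate 1 and 8-cell FLI replicate 2 lay nearest to 4-cell libraries, and in 8-cell FLI replicate 3 only 21.4% of the mapped reads fell in the genes of the table. Markers of oocytes and early embryos, 8 of 10 with an entry, had a summed level of 6314 to 6884 CPM in 2-cell DMEM and 6623 to 6758 CPM in 2-cell FLI libraries. Their sum was 1188 to 2577 CPM in 4-cell DMEM, 1580 to 3181 CPM in 4-cell FLI, 629 to 2330 CPM in 8-cell DMEM and 283 to 3865 CPM in 8-cell FLI libraries. The highest sums of the 8-cell groups were those of 8-cell DMEM replicate 1 and 8-cell FLI replicate 2, and none of the 8 markers was at 0 in any group. Markers of cumulus and granulosa cells, 8 of 10 with an entry, summed to at most 21.1 CPM in any library, and in each group 1 of them (HAS2, TNFAIP6 or CYP11A1) was at 0. Their sums were 1.34 to 4.87 CPM in 2-cell and 7.84 to 21.1 CPM in 4-cell libraries. Those of blood and immune cells (4 of 7 with an entry) were 0.672 to 3.44 and 8.92 to 30.2 CPM, with LYZ at 0 in both stages. Markers of fibroblasts and endothelium (6 of 6) summed to 6.53 to 35.4 CPM over all libraries, and the part of any of these markers in the results was not tested.

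From the 2-cell to the 4-cell stage the genes of the box C/D proteins rose in both media, and FBL rose the most. FBL encodes fibrillarin, the methyltransferase of these particles, on chromosome 6 from 48314783 to 48326436 (ENSSSCG00000030510, build Sscrofa11.1, as are all positions). In 2-cell DMEM libraries it had 1.95, 1.73 and 3.28 CPM, from 9 to 23 counts, and in 4-cell DMEM libraries 264, 223 and 234 CPM. In FLI libraries it had 5.44, 3.36 and 2.22 CPM at the 2-cell and 199, 193 and 198 CPM at the 4-cell stage. Every 4-cell library was thus far above every 2-cell library. The fold change of FBL was 99.9 in DMEM (log2 fold change 6.64, SE 0.310, adjusted p = 8.49e-12 from edgeR's quasi-likelihood test) and 54.7 in FLI (5.77, SE 0.298, adjusted p = 2.84e-11).

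NOP58 and NOP56 encode the paired scaffold proteins of the box C/D particle. NOP58, on chromosome 15 from 105893637 to 105930459 (ENSSSCG00000022225), had 48.5, 49.7 and 40.4 CPM in 2-cell DMEM and 394, 368 and 421 CPM in 4-cell DMEM libraries. In FLI it had 43.0, 43.3 and 50.6 CPM at the 2-cell and 340, 336 and 417 CPM at the 4-cell stage. The stages did not overlap, and the log2 fold change was 3.09 in DMEM (SE 0.199, adjusted p = 2.90e-10, edgeR) and 2.99 in FLI (SE 0.199, adjusted p = 4.94e-10). NOP56 lies on chromosome 17 from 32960102 to 32965370 (ENSSSCG00000027676) and overlaps IDH3B on the other strand by 3 bases. It had 164, 148 and 144 CPM in 2-cell DMEM and 523, 551 and 488 CPM in 4-cell DMEM libraries, and in FLI 148, 135 and 123 CPM against 441, 500.1 and 507 CPM. Its 2-cell level was above that of NOP58 in every library and its change was smaller, with a log2 fold change of 1.78 in DMEM (SE 0.187, adjusted p = 1.95e-07, edgeR) and 1.84 in FLI (SE 0.188, adjusted p = 1.42e-07).

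SNU13 encodes the protein that first binds the bent motif of box C/D RNAs, and it also binds the U4 RNA of the spliceosome. It lies on chromosome 5 from 6885067 to 6900022 (ENSSSCG00000000058). Its level went from 88.9, 80.5 and 67.5 CPM in 2-cell DMEM to 231, 263 and 233 CPM in 4-cell DMEM libraries. In FLI libraries it went from 79.9, 55.6 and 66.0 CPM to 207, 209.9 and 212 CPM, again with no overlap of the stages. The log2 fold change was 1.62 in DMEM (SE 0.174, adjusted p = 2.56e-07, edgeR) and 1.64 in FLI (SE 0.175, adjusted p = 2.31e-07).

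Among the 3 box H/ACA genes with an entry by name, DKC1 changed more than NOP10 and GAR1. DKC1 encodes dyskerin, the pseudouridine synthase of these particles, which is also bound to telomerase RNA. It lies on chromosome X from 125218923 to 125229525 (ENSSSCG00000012823) and overlaps F8 on the other strand by 76 bases. It had 54.7, 51.9 and 53.2 CPM in 2-cell DMEM and 808, 852 and 749.6 CPM in 4-cell DMEM libraries. In FLI it had 39.8, 49.1 and 48.4 CPM at the 2-cell and 665, 599 and 617 CPM at the 4-cell stage. No library of one stage came near those of the other, and the log2 fold change was 3.91 in DMEM (SE 0.191, adjusted p = 1.15e-11, edgeR) and 3.77 in FLI (SE 0.190, adjusted p = 2.14e-11).

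NOP10 and GAR1 encode small proteins that bind dyskerin. NOP10, on chromosome 7 from 80161096 to 80164328 (ENSSSCG00000036960), had 9.74, 12.7 and 9.84 CPM in 2-cell DMEM and 30.9, 24.4 and 34.0 CPM in 4-cell DMEM libraries. In FLI it had 16.3, 11.4 and 13.1 CPM against 27.0, 26.0 and 29.2 CPM. It rose in both media without overlap, by a log2 fold change of 1.47 in DMEM (SE 0.248, adjusted p = 5.88e-05, edgeR) and 1.01 in FLI (SE 0.247, adjusted p = 0.00177). GAR1, on chromosome 8 from 112400005 to 112414033 (ENSSSCG00000009137), had 16.2, 16.1 and 16.98 CPM in 2-cell DMEM and 32.6, 29.8 and 19.1 CPM in 4-cell DMEM libraries. In FLI it had 8.88, 17.1 and 13.5 CPM at the 2-cell and 48.2, 23.6 and 15.7 CPM at the 4-cell stage. GAR1 had the highest coefficient of variation of the 9 genes in each 4-cell and 8-cell group, reaching 58.1% in 4-cell FLI and 66.9% in 8-cell FLI libraries, but not at the 2-cell stage, where it was 2.82% in DMEM and 31.4% in FLI. Its log2 fold change did not pass in DMEM (0.72, SE 0.469, adjusted p = 0.185, edgeR). After TMM scaling the 3 4-cell DMEM libraries were above all 2-cell DMEM libraries, but not by the TPM values given below. The change of GAR1 passed in FLI (1.14, SE 0.475, adjusted p = 0.0448), where the stages overlapped.

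NHP2, the remaining box H/ACA protein, could be followed only through a gene that the table lists by identifier alone. This gene, ENSSSCG00000039635, lies on chromosome 2 from 80223054 to 80227698 and covers the RefSeq position of NHP2, from 80223439 to 80227614 on the same build. It was chosen after the table was seen and is not counted with the others, and 2203 of its bases overlap RMND5B on the other strand. Since the sources do not state that counting used strand, reads of the overlapping genes cannot be told apart. It had 1.73, 1.15 and 1.28 CPM (from 6 counts upwards) in 2-cell DMEM and 73.8, 51.9 and 47.2 CPM in 4-cell DMEM libraries, and 5.16, 1.34 and 3.23 CPM against 58.3, 53.8 and 63.3 CPM in FLI. The stages did not overlap in either medium, and the log2 fold change was 5.36 in DMEM (SE 0.381, adjusted p = 9.86e-10, edgeR) and 4.23 in FLI (SE 0.353, adjusted p = 9.74e-09).

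Nucleolin rose several-fold and nucleophosmin by less than any other of these genes. NCL encodes nucleolin, an abundant nucleolar protein that binds nascent ribosomal RNA, on chromosome 15 from 132162516 to 132174172 (ENSSSCG00000016275). It had 1427, 1295 and 1225 CPM in 2-cell DMEM and 7500.5, 8010.0 and 5843 CPM in 4-cell DMEM libraries. In FLI it had 1220, 1245 and 1053 CPM against 6112, 6371 and 6687 CPM. The stages did not overlap, with a log2 fold change of 2.44 in DMEM (SE 0.207, adjusted p = 1.06e-08, edgeR) and 2.45 in FLI (SE 0.207, adjusted p = 1.15e-08). NPM1 encodes nucleophosmin, a chaperone of histones and ribosomal proteins, on chromosome 16 from 52765298 to 52781771 (ENSSSCG00000016998). It had 1879, 1744 and 1911 CPM in 2-cell DMEM and 2851, 2989 and 2792 CPM in 4-cell DMEM libraries. In FLI it had 1647, 1699 and 1749 CPM against 2252, 2200.4 and 2508 CPM, again with every 4-cell library above every 2-cell library. Its log2 fold change was 0.64 in DMEM (SE 0.167, adjusted p = 0.00283, edgeR) and 0.45 in FLI (SE 0.166, adjusted p = 0.0258).

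**Figure D1:**
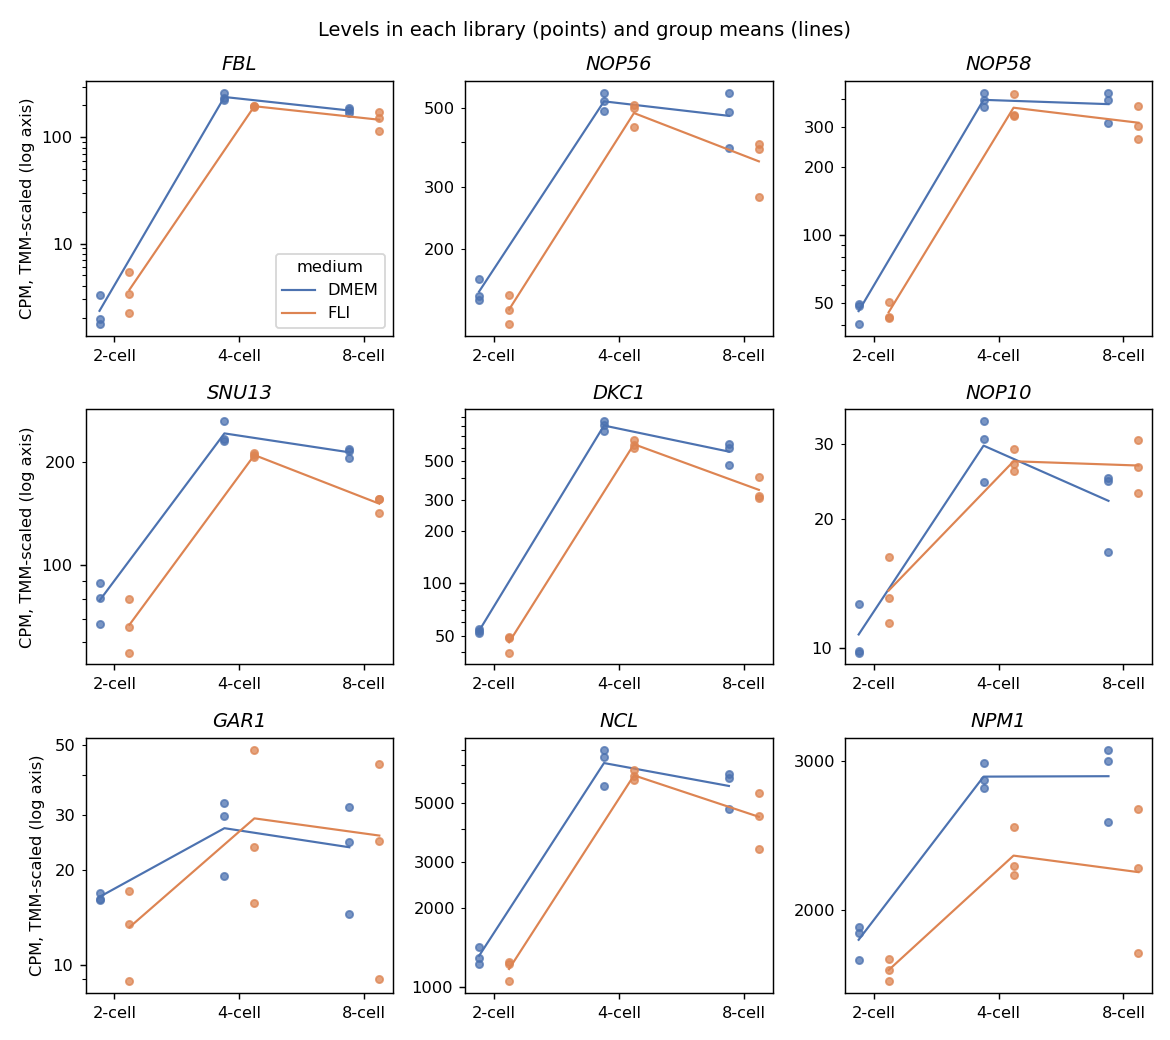
Level of each gene in each library, as TMM-scaled CPM on a log axis, by stage and medium. Points are the 3 libraries of a group and lines join the group means. FBL went from 1.73 to 5.44 CPM at the 2-cell stage to 193 to 264 CPM at the 4-cell stage, whereas the libraries of GAR1 spread from 9.06 to 43.5 CPM within 8-cell FLI alone.

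In all, 8 of the 9 genes rose between the 2-cell and 4-cell stages in DMEM, beside 35.2% of the 13187 genes tested, and 9 of 9 rose in FLI, beside 34.6%. The median log2 fold change of the 9 genes was 1.78 in DMEM and 1.84 in FLI, and that of all tested genes was 0.16 and 0.18. With upper quartile scaling the latter were 0.0079 and 0.039. After TMM scaling, the 3 libraries of the 4-cell stage were all above those of the 2-cell stage for 9 of 9 genes in DMEM, beside 38.7% of all genes, and for 8 of 9 in FLI, beside 39.6%. GAR1 in DMEM and NPM1 in FLI overlapped by the TPM values given below. By size of change, FBL ranked 328 and DKC1 1295 of the 13187 genes in DMEM, and 540 and 1349 in FLI. The change of FBL was smaller in FLI than in DMEM by 0.87 on the log2 scale, and this difference did not pass the test of the interaction of medium and stage (SE 0.393, adjusted p = 1, edgeR). None of the other 8 genes passed that test either, for which edgeR called 0 genes, as did DESeq2 and limma voom, with 337 genes at an unadjusted p under 0.05. The calls of GAR1 and NPM1 in FLI were lost under many other settings, among them leaving out 4-cell FLI replicate 1 (log2 fold changes of 0.45 and 0.35, adjusted p = 0.456 and 0.187). NPM1 in DMEM no longer passed without 4-cell DMEM replicate 2 (0.47, adjusted p = 0.0717).

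Between the 4-cell and 8-cell stages most of these genes were at slightly lower levels, and DKC1 in FLI was the 1 gene that passed the test. Its 8-cell FLI libraries had 405, 318 and 307 CPM, all below the 599 to 665 CPM of the 4-cell FLI libraries. The log2 fold change was -0.87 (SE 0.171, adjusted p = 0.0184, edgeR), where 2.24% of all genes were lower. Without the 3 libraries that stood apart (replicate 1 of 8-cell DMEM, replicates 2 and 3 of 8-cell FLI) the value was -0.65 (adjusted p = 0.0256), with 1 8-cell FLI library left. It did not pass without 8-cell FLI replicate 1 (-1.01, adjusted p = 0.0577) or without 4-cell FLI replicate 1, 2 or 3 (-0.85, -0.93 and -0.90, adjusted p = 0.0792, 0.110 and 0.0811), nor in a fit of the compared groups alone (-0.73, adjusted p = 0.386) or with no filter on low counts (-0.85, adjusted p = 0.0502). Leaving out 1 of these libraries also changed the filter, which then kept 14117 to 14222 genes instead of 13187. The SE of DKC1 was 0.201 to 0.211 in those fits and 0.208 with no filter. Whether the library or the filter lost the call was not tested. In DMEM, DKC1 had 479, 627 and 600.3 CPM at the 8-cell against 749.6 to 852 CPM at the 4-cell stage. These did not overlap, but their difference of -0.50 on the log2 scale did not pass (SE 0.170, adjusted p = 0.195).

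The other genes did not pass in either medium at this step. After TMM scaling, the 8-cell FLI libraries were all below the 4-cell FLI libraries also for FBL, NOP56, SNU13 and NCL, so that 5 of 9 genes were separate, beside 12.6% of all genes. FBL overlapped by the TPM values given below. The log2 fold changes were -0.42 (SE 0.230, adjusted p = 0.322) for FBL, -0.45 (SE 0.182, adjusted p = 0.178) for NOP56, -0.47 (SE 0.170, adjusted p = 0.131) for SNU13 and -0.52 (SE 0.197, adjusted p = 0.145) for NCL, by edgeR. Without 8-cell FLI replicate 2, NOP56 passed as well (-0.60, adjusted p = 0.0456), but the calls over all genes then went from 106 higher and 296 lower to 622 and 1596 of 14185. They were 0 and 0 without 8-cell FLI replicate 1, without 4-cell FLI replicate 2 or with only the groups compared. In DMEM 3 of 9 genes were separate, namely FBL, SNU13 and DKC1, beside 13.6% of all genes. NPM1 had log2 fold changes of 0.0018 (95% interval -0.35 to 0.35) in DMEM and -0.065 (-0.41 to 0.28) in FLI. In DMEM edgeR called 0 genes of all those tested, with 1907 at an unadjusted p under 0.05, of which 1 was among these 9. DESeq2 called 150 genes higher and 294 lower in this comparison and limma voom 1 and 21, with none of the 9 among them. Without the 3 libraries that stood apart edgeR called 578 higher and 1425 lower of 14247. The median of all genes in FLI was 0.03, and it was 0.22 with upper quartile scaling and 0.19 with library sizes alone, which turned the split of the calls into 205 higher and 113 lower and into 163 and 125. DKC1 was lower and passed under both (-0.67 and -0.70, adjusted p = 0.0455 and 0.0369), whereas NPM1 and NOP10 were above 0 under both. With upper quartile scaling GAR1 in FLI and NOP56 and NOP58 in DMEM were also above 0.

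**Figure D2:**
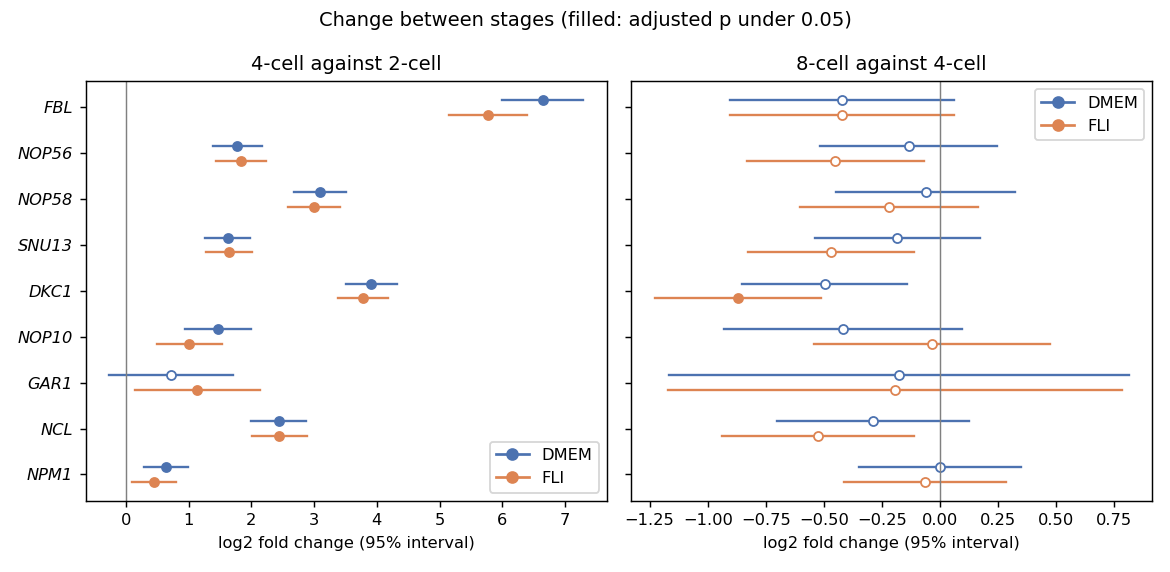
Log2 fold change of each gene from the 2-cell to the 4-cell stage (left) and from the 4-cell to the 8-cell stage (right), with 95% intervals from edgeR, in DMEM and FLI. Filled points passed an adjusted p under 0.05, and the panels have different scales. In the right panel only DKC1 in FLI, at -0.87, is filled.

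At each stage most of these genes had lower mean levels in FLI than in DMEM embryos, and with edgeR none of the 9 passed. The count below 0 was 7 of 9 at the 2-cell, 8 of 9 at the 4-cell and 7 of 9 at the 8-cell stage. The medians were -0.17, -0.16 and -0.38 on the log2 scale, against -0.0015, -0.010 and 0.046 for all genes. DKC1 was separate between the media at every stage. In 2-cell embryos it had 39.8 to 49.1 CPM in FLI and 51.9 to 54.7 CPM in DMEM, and in 4-cell embryos 599 to 665 and 749.6 to 852 CPM. In 8-cell embryos it had 307 to 405 CPM in FLI and 479 to 627 CPM in DMEM. The log2 fold changes of DKC1 were -0.22 (SE 0.174, adjusted p = 1, edgeR), -0.36 (SE 0.169, adjusted p = 1) and -0.73 (SE 0.170, adjusted p = 0.361). With DESeq2, DKC1 passed at the 8-cell stage (-0.74, adjusted p = 0.00645).

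SNU13 was separate between the media at the 4-cell and 8-cell stages after TMM scaling, but overlapped at the 4-cell stage by the TPM values given below. Its FLI libraries had 207, 209.9 and 212 CPM and its DMEM libraries 231, 263 and 233 CPM at the 4-cell stage, and 156, 156 and 142 against 219, 206 and 216 CPM at the 8-cell stage. Every FLI library was below every DMEM library, with log2 fold changes of -0.21 (SE 0.169, adjusted p = 1, edgeR) and -0.50 (SE 0.171, adjusted p = 0.472). NPM1 and FBL were separate at the 4-cell stage only, with -0.31 (SE 0.166, adjusted p = 1) and -0.29 (SE 0.229, adjusted p = 1). After TMM scaling, the genes whose FLI libraries were all lower thus numbered 1 of 9 at the 2-cell stage, 4 of 9 at the 4-cell stage and 2 of 9 at the 8-cell stage, beside 6.04%, 5.31% and 5.63% of all genes. FBL had the reverse sign at the 2-cell stage, at 0.58 (SE 0.319, adjusted p = 1), where its libraries overlapped and held at most 23 counts. NOP10 was at 0.33, -0.12 and 0.26, and GAR1 at -0.31, 0.11 and 0.09, with 95% intervals that include 0.

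Over the 3 stages together, in a model of stage and medium, DKC1 was at -0.44 on the log2 scale (SE 0.106, adjusted p = 0.999, edgeR) and ranked 5 of 13187 genes by p. SNU13 had -0.31 (SE 0.0985, adjusted p = 0.999), and NPM1, NCL and NOP56 had -0.27, -0.24 and -0.23. NOP10 was the 1 of 9 above 0, at 0.15, and the median was -0.23 against 0.02 for all genes. DESeq2 called DKC1 lower (-0.46, adjusted p = 0.0139). With edgeR 0 genes were called in any of these comparisons of the media. At an unadjusted p under 0.05 there were 284 genes at the 2-cell, 305 at the 4-cell and 1035 at the 8-cell stage and 600 over the 3 stages, of which 0, 1, 4 and 5 were among these 9. DESeq2 called 1 gene higher at the 2-cell stage, 0 at the 4-cell stage, 7 higher and 22 lower at the 8-cell stage and 11 lower over the 3 stages, and limma voom called 0 in each. The comparison of 4-cell FLI with 8-cell DMEM embryos, which the study also made, had no call among these genes. The study reported genes that differed there, by a threshold on fold change and p unlike the one used here. NPM1 was lower in all 4-cell FLI libraries, where 8.63% of all genes were, at -0.31 (SE 0.166, adjusted p = 0.378, edgeR), and it passed without the 3 8-cell libraries that stood apart (-0.38, adjusted p = 0.0407), a setting in which edgeR called 1539 genes higher and 732 lower of 14247. FBL and NOP10 were higher in all 4-cell FLI libraries, at 0.13 and 0.29 (adjusted p = 0.817 and 0.586), and 14.5% of all genes were separate in that direction. Over all 18 libraries edgeR called 0 genes here, with 2024 at an unadjusted p under 0.05, while DESeq2 called 276 higher and 188 lower and limma voom 22 and 2.

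**Figure D3:**
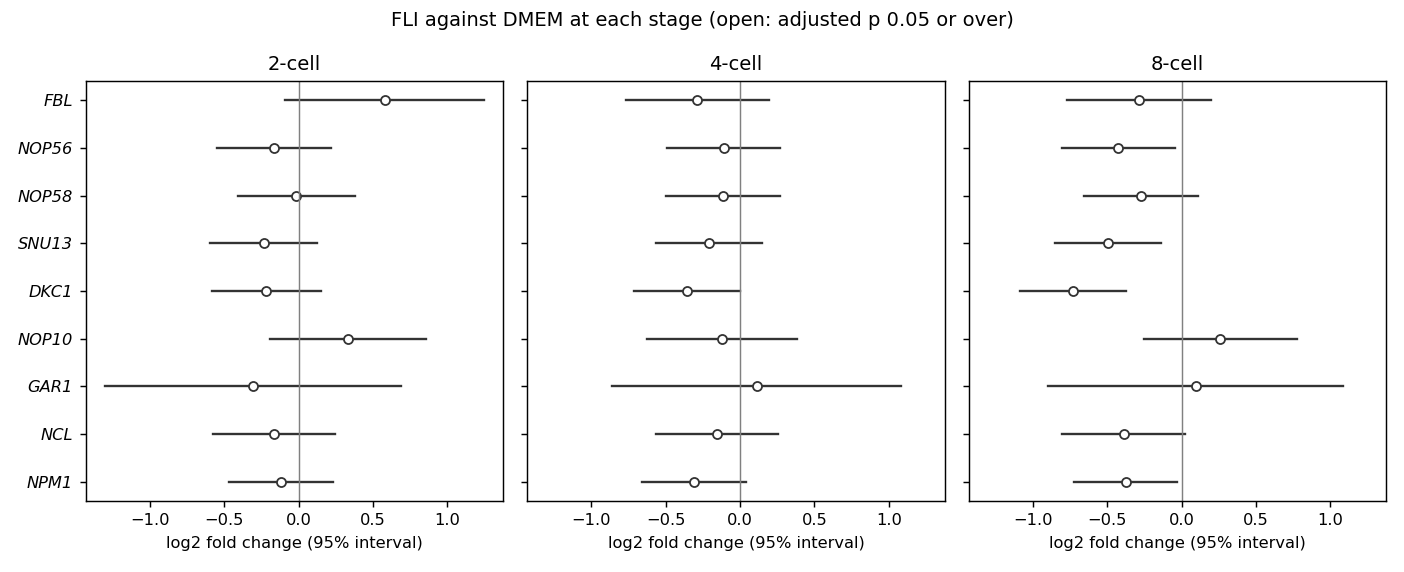
Log2 fold change of each gene in FLI against DMEM embryos in 2-cell, 4-cell and 8-cell embryos, with 95% intervals from edgeR on a shared axis. Open points did not pass an adjusted p under 0.05, and all points are open. DKC1 lies at -0.22, -0.36 and -0.73, and GAR1 has the widest intervals.

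Compared per annotated exon length, the proteins of 1 particle had unequal transcript levels, and the order changed between the stages. The TPM unit (transcripts scaled to a common total), used here as deposited, divides counts by exon length. Its values depend on the exon lengths of the annotation (1397 bases for SNU13, 8556 for NOP58). NCL had the highest TPM in all 6 groups, from 842 ± 85.3 (SD, n = 3) in 2-cell FLI to 3670 ± 673 in 4-cell DMEM embryos. It ranked 105 and 121 among all genes at the 2-cell stage in DMEM and FLI, and 16 and 17 at the 4-cell stage. NPM1 followed in every group, at 751 ± 20.4 to 913 ± 66.0 TPM, and the ranges of NCL and NPM1 overlapped only in 2-cell FLI embryos. The ratio of NCL to NPM1 in TPM was 0.976 to 1.23 in 2-cell libraries and 3.40 to 4.70 in 4-cell libraries. On this scale some separations given above did not hold. The stages of NPM1 overlapped in FLI, with 727 to 763 TPM at the 2-cell and 749 to 810 TPM at the 4-cell stage. Those of GAR1 overlapped in DMEM, with 13.8 to 14.9 TPM at the 2-cell and 11.8 to 19.9 TPM at the 4-cell stage. The 4-cell and 8-cell stages of FBL overlapped in FLI, with 110 to 120 and 75.7 to 113 TPM. SNU13 overlapped between the media at the 4-cell stage, with 397 to 420 TPM in FLI and 412 to 505 TPM in DMEM.

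Within the box C/D particle, NOP56 had the highest TPM in every group, followed by SNU13. FBL was the lowest of all 9 genes at the 2-cell stage, at 1.75 ± 0.652 TPM in DMEM and 2.79 ± 1.24 TPM in FLI (SD, n = 3), against 254 ± 13.5 and 229 ± 22.8 TPM for NOP56. The highest of the 4 box C/D genes exceeded the lowest by a median of 188-fold in 2-cell DMEM and 89.2-fold in 2-cell FLI libraries, and by 5.37-fold and 5.70-fold at the 4-cell stage. At the 4-cell stage FBL (131 and 114 TPM) and NOP58 (118 and 116 TPM) were close to each other, and their ranges overlapped in FLI. This closeness rests on the exon lengths, 4706 bases for FBL and 8556 for NOP58. The 3 box H/ACA genes went the other way. DKC1 exceeded the lowest of them by a median of 5.47-fold in 2-cell DMEM and 5.03-fold in 2-cell FLI libraries, and by 40.2-fold and 35.6-fold at the 4-cell stage. From 64.8 ± 0.986 TPM in 2-cell DMEM embryos DKC1 reached 709.6 ± 68.1 TPM in 4-cell DMEM embryos, where it overlapped NOP56. NOP10 and GAR1 stayed between 6.84 and 33.6 TPM in every library and were the lowest at the 4-cell and 8-cell stages. The exon length used for NOP10 was 2937 bases, longer than its whole span in RefSeq, from 80161024 to 80162299. A shorter length would give NOP10 a higher TPM. GAR1 and NOP10 did not overlap in 4-cell DMEM and overlapped in the other 5 groups.

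**Figure D4:**
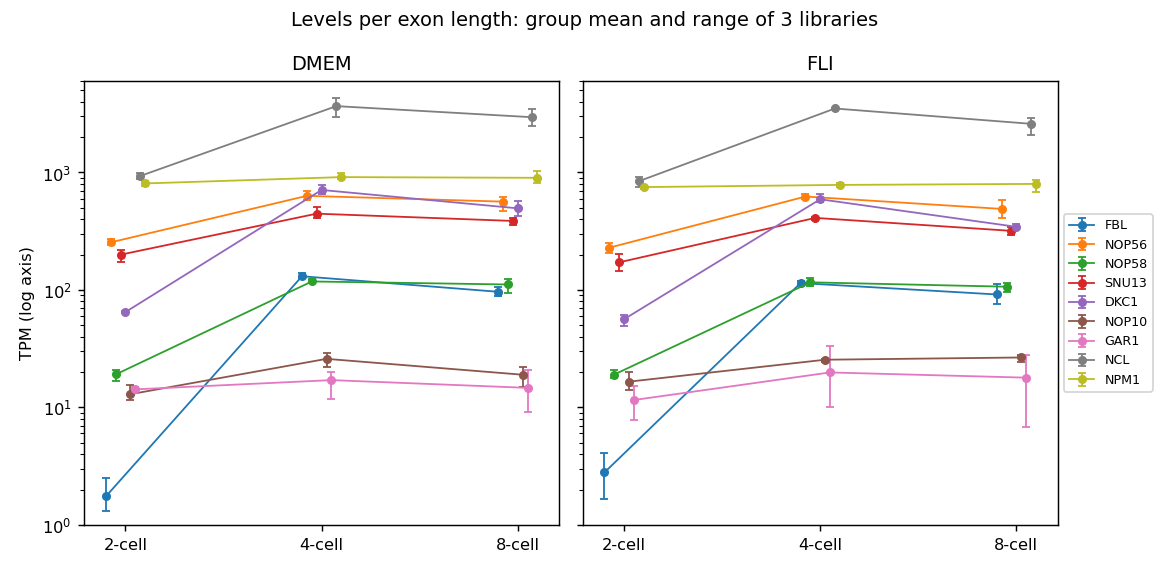
Mean TPM of each gene by stage in DMEM (left) and FLI (right) on a log axis, with bars for the range of the 3 libraries. FBL is the lowest at the 2-cell stage, at 1.75 and 2.79 TPM, and joins NOP58 at the 4-cell stage, while DKC1 moves from 64.8 and 56.3 TPM to the level of NOP56.

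Other genes of ribosome synthesis also rose between the 2-cell and 4-cell stages. Of 14 factors that assemble or localise snoRNPs, 11 rose and 1 fell in DMEM, and 10 rose and 1 fell in FLI (medians 1.42 and 1.41). Of all genes tested, 35.2% rose and 28.4% fell in DMEM, and 34.6% rose and 27.2% fell in FLI. RUVBL2, a helicase of the R2TP assembly complex, had log2 fold changes of 4.89 (SE 0.260, adjusted p = 2.86e-11, edgeR) and 5.04 (SE 0.264, adjusted p = 3.23e-11), NOPCHAP1 4.28 and 4.70, and TCOF1, the nucleolar protein treacle, 3.46 and 3.16. RPAP3, another part of R2TP, was the factor that fell. Of 28 tested genes of the U3 snoRNP and the small subunit processome, which cuts the precursor of ribosomal RNA, 23 rose and 3 fell in DMEM and 21 rose and 4 fell in FLI (medians 2.48 and 2.38). NAT10, UTP23 and UTP11 fell in both media and WDR75 in FLI. TBL3 had 6.23 and 7.89, WDR46 4.13 and 4.56 and MPHOSPH10 4.04 and 3.92. Of 11 other nucleolar proteins 9 rose and 1, NPM3, fell in each medium, with MYBBP1A at 3.88 and 4.15, NOP53 at 4.42 and 4.77, and NOP2, a ribosomal RNA methyltransferase, at 4.56 and 4.43. Of 15 genes of RNA polymerase I and its factors, 13 rose in DMEM and 12 in FLI, and TAF1A fell in both. POLR1A, its largest subunit, had 2.86 and 2.63, TAF1C 3.25 and 4.47, and TAF1D 5.30 and 5.08.

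From the 4-cell to the 8-cell stage in FLI, the calls in these lists were all lower, as that of DKC1 was. There were 3 of 14 among the assembly factors (TCOF1, TGS1 and RUVBL2), 5 of 28 in the processome (TBL3, RRP7A, NOP14, RRP9 and IMP4), 0 of 11 other nucleolar proteins and 3 of 15 in RNA polymerase I (TTF1, POLR1A and POLR1D), beside 2.24% of all genes. All 4 counts were 0 in a fit of the compared groups alone, with no filter, and without 8-cell FLI replicate 1 or 4-cell FLI replicate 1, 2 or 3. Without 8-cell FLI replicate 3 they were 0, 1, 0 and 0, and without 8-cell FLI replicate 2 they were 5, 7, 3 and 5. With upper quartile scaling these counts were 0, 0, 0 and 1, and without the 3 8-cell libraries that stood apart 3, 2, 0 and 3 were lower and 1 of the other nucleolar proteins was higher. The markers of oocytes and early embryos had a median log2 fold change of 0.04 in this step, with 0 of 8 called by edgeR.

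Over the 18 libraries most of the 9 genes had similar profiles, with NOP10 and NPM1 less close and GAR1 the least. Pearson's r of each gene with the mean standardised profile of the 9 genes was 0.993 for NCL, 0.992 for DKC1, 0.983 for NOP58, 0.982 for NOP56, 0.972 for FBL, 0.968 for SNU13, 0.909 for NOP10, 0.885 for NPM1 and 0.639 for GAR1. Each gene is part of that mean, and the libraries fall into stages, so these are descriptions without a test. By this r, NCL ranked 3, DKC1 5, NOP58 138, NOP56 149, FBL 646 and SNU13 872 of the 13187 genes tested. NOP10 ranked 2313, NPM1 2626 and GAR1 4525, so many other genes followed the profile as closely. The named genes outside this group with the highest r were EIF3B (0.994) and EIF4B (0.992), translation initiation factors, TRAFD1 (0.994), WDR43 (0.993), a processome protein, and PSMD6 (0.992), a proteasome subunit. Ranked by Spearman's rho, TRAFD1 alone of these 5 was among the first 5.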

How the data were processed

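Members and lists were chosen with earlier results of these data known. Per the labels and methods of the study, libraries of the Pico version of the SMARTer stranded total RNA kit were mapped by the authors with bowtie2, and values came from Illumina Dragen (versions not given in the sources used here). Submitters' notes name DESeq2 and the build Sscrofa11.1. The authors deposited whole-number counts, used for all tests, together with TPM, used as deposited for levels between genes, and RPKM, used for exon lengths and mapped reads. Another 18 columns of CPM were not used.

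Counts were analysed with edgeR 4.0.16 in R 4.3.3. Genes kept by filterByExpr (13187) were scaled by TMM and fitted in 1 quasi-likelihood model of 6 group means over 18 libraries. A further model had stage and medium as terms. The threshold was 0.05 for p adjusted over all tested genes (Benjamini-Hochberg), and intervals use the t distribution. The code was tested on simulated data.

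Named were all members, up to 3 genes of each other list with the smallest p from the 2-cell to the 4-cell stage in FLI and the 5 genes with the highest Pearson's r of log2(CPM + 1) to the members' mean profile. List genes that fell at the 4-cell stage or were lower at the 8-cell stage were named after their values were seen. Alternatives were DESeq2 1.42.0, limma 3.58.1 (voom), other scalings, no filter, only the groups compared, no mitochondrially encoded genes, a replicate block, RPKM, Spearman's rho and leaving out libraries. Where libraries were left out, the filter was applied anew to the remaining ones. Figures were drawn with matplotlib 3.10.9 in Python 3.11.15.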

Additional observations from a re-analysis of the deposited data

How the results depend on the processing

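Under the alternatives tried, FBL, NOP56, NOP58, SNU13, DKC1, NOP10 and NCL kept their rise from the 2-cell to the 4-cell stage in both media. Of 1791 values of the 9 genes under an alternative, 1656 kept their direction and their side of the threshold, but most of these had no call to lose. The main fit called 8 and 9 of the 9 genes at the 4-cell step in DMEM and FLI, 1 at the 8-cell step in FLI and no others. Of the 1791 values, 26 lost a call (10 of GAR1, 10 of NPM1, 6 of DKC1) and 6 gained one. Another 103 changed sign, none of which was called before or after (adjusted p of at least 0.46). The number of the 9 genes called from the 4-cell to the 8-cell stage in FLI was 0 with only the groups compared, 0 with no filter, and 0 to 2 with each library left out. It was 1 with DESeq2 for FLI against DMEM at the 8-cell stage and over the 3 stages, and 1 without the 3 8-cell libraries that stood apart for 4-cell FLI against 8-cell DMEM. Of the 5 most similar genes 1 was shared with Spearman's rho. The order of levels was the same with RPKM. RPKM divides the same counts by the same exon lengths, so that order could hardly differ and is no check of it. All genes called from the 4-cell to the 8-cell stage in FLI numbered 106 higher and 296 lower, and they were 205 and 113 with upper quartile scaling and 163 and 125 with library sizes alone. They were 0 and 0 with only the groups compared and without 8-cell FLI replicate 1 or 4-cell FLI replicate 2, 51 and 87 with no filter, 31 and 149 with the replicate block, 9 and 17 without 4-cell FLI replicate 1, 1 and 19 without 4-cell FLI replicate 3, 133 and 95 without 8-cell FLI replicate 3, 622 and 1596 without 8-cell FLI replicate 2, 515 and 732 without the 3 libraries, 101 and 602 by limma voom, and 485 and 704 by DESeq2. In DMEM they were 0 and 0, and 578 and 1425 without the 3 libraries. For 4-cell FLI against 8-cell DMEM they were 0 and 0, and 1539 and 732 without the 3 libraries and 47 and 33 with only the groups compared. From the 2-cell to the 4-cell stage in DMEM they were 4636 and 3747, and 4240 and 4277 with upper quartile scaling. Pairing of the libraries by replicate number was not shown, since in 0 of 8 comparisons was every correlation of deviations over 0.1 (-0.28 to 0.44). With 3 libraries in a group this cannot exclude pairing, and in 10 of 24 cases a library matched its own replicate number best. With the number as a block 8 and 8 of the 9 genes rose at the 4-cell stage in DMEM and FLI, GAR1 no longer passing in FLI (1.04, adjusted p = 0.0794). The levels of GAR1, NOP10 and 2-cell FBL rest on few counts. Leaving out libraries also changed which genes the filter kept, and the cause of the changes with the setting was not tested. The values that changed sign follow, as log2 fold changes. For 8-cell against 4-cell in DMEM these were NOP58 (0.052 with only the groups compared, 0.086 with upper quartile scaling, 0.059 with library size alone, 0.019 with no mitochondrially encoded genes and 0.047 with the 3 libraries left out), ENSSSCG00000039635 (0.0030 with only the groups compared, 0.034 with upper quartile scaling and 0.015 with library size alone), NOP56 (0.015 with upper quartile scaling) and GAR1 (0.056 with the 3 libraries left out). For 8-cell against 4-cell in FLI these were NOP10 (0.024 with DESeq2, 0.11 with only the groups compared, 0.031 with DESeq2 size factors, 0.18 with upper quartile scaling, 0.15 with library size alone, 0.050 with no mitochondrially encoded genes and 0.15 with the 3 libraries left out), NPM1 (0.066 with only the groups compared, 0.12 with upper quartile scaling, 0.097 with library size alone, 0.0083 with no mitochondrially encoded genes and 0.17 with the 3 libraries left out), GAR1 (0.023 with upper quartile scaling and 0.54 with the 3 libraries left out) and NOP58 (0.013 with the 3 libraries left out). For FLI against DMEM at the 2-cell stage these were NOP58 (0.010 with library size alone). For FLI against DMEM at the 4-cell stage these were ENSSSCG00000039635 (-0.017 with DESeq2 and -0.017 with DESeq2 size factors). For FLI against DMEM at the 8-cell stage these were GAR1 (-0.27 with limma voom). For FLI against DMEM over the 3 stages these were ENSSSCG00000039635 (-0.16 with limma voom and -0.020 with DESeq2 size factors) and GAR1 (0.0046 with upper quartile scaling, 0.049 with library size alone and 0.059 with the 3 libraries left out). For 4-cell FLI against 8-cell DMEM these were NOP56 (-0.053 with DESeq2, -0.088 with only the groups compared, -0.051 with DESeq2 size factors, -0.11 with upper quartile scaling, -0.031 with library size alone, -0.037 with no mitochondrially encoded genes and -0.092 with the 3 libraries left out), ENSSSCG00000039635 (-0.0047 with upper quartile scaling) and SNU13 (0.0032 with the 3 libraries left out). For the interaction at the 4-cell step these were SNU13 (-0.0069 with DESeq2 and -0.010 with DESeq2 size factors) and NCL (-0.028 with DESeq2 and -0.028 with DESeq2 size factors). For the interaction at the 8-cell step these were GAR1 (0.048 with DESeq2, 0.025 with only the groups compared, 0.029 with DESeq2 size factors, 0.060 with upper quartile scaling, 0.029 with library size alone and 0.49 with the 3 libraries left out), FBL (-0.013 with limma voom, -0.016 with no filter, -0.0059 with no mitochondrially encoded genes and -0.011 with the replicate block) and NPM1 (0.094 with the 3 libraries left out). With each library left out in turn the ranges were NPM1 -0.089 to 0.077, ENSSSCG00000039635 -0.24 to 0.10, NOP58 -0.16 to 0.049 and GAR1 -0.50 to 0.054 for 8-cell against 4-cell in DMEM, GAR1 -0.87 to 0.34, NOP10 -0.16 to 0.00034 and NPM1 -0.21 to 0.097 for 8-cell against 4-cell in FLI and NOP58 -0.10 to 0.041 for FLI against DMEM at the 2-cell stage. They were ENSSSCG00000039635 -0.11 to 0.24 and GAR1 -0.46 to 0.41 for FLI against DMEM at the 4-cell stage, GAR1 -0.55 to 0.48 for FLI against DMEM at the 8-cell stage and ENSSSCG00000039635 -0.11 to 0.094 and GAR1 -0.22 to 0.079 for FLI against DMEM over the 3 stages, and NOP56 -0.094 to 0.15, SNU13 -0.013 to 0.021, NOP58 -0.16 to 0.043 and GAR1 -0.25 to 0.61 for 4-cell FLI against 8-cell DMEM, SNU13 -0.091 to 0.17, NCL -0.11 to 0.12, NOP56 -0.0016 to 0.13 and GAR1 -0.15 to 0.71 for the interaction at the 4-cell step and FBL -0.16 to 0.19, GAR1 -0.67 to 0.55 and NPM1 -0.18 to 0.10 for the interaction at the 8-cell step.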
